A study of Mus musculus with 6 samples.

Results

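The ribosomal protein genes of the mouse hippocampus were compared between mice overexpressing TAF15 and control mice. Members were the protein-coding genes of the authors' comparison table whose symbols start with Rpl or Rps (cytosolic ribosome) or with Mrpl or Mrps (mitochondrial ribosome), followed by a digit. Rps19bp1 and the Rps6k kinases, which carry such symbols but are no ribosomal proteins, were left out. This gave 167 of the 30821 genes of that table: 56 Rpl, 34 Rps, 48 Mrpl and 29 Mrps genes, so 90 for the cytosolic and 77 for the mitochondrial ribosome. The rule used names only and no measured value.

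The 6 libraries came from 6 mice (male, C57BL/6J), 3 in each group. All had received an adeno-associated virus in the CA1 field on both sides when 8 weeks old. A time of 31 days is stated for each mouse. In the TAF15 OE group the virus carried TAF15 under the CaMKIIα promoter, which drives expression in excitatory neurons, and the Control group had a control virus. The whole hippocampus was extracted, so the RNA mixes transduced neurons with other neurons, glia and blood vessels. In such bulk samples fewer cells of a type and less RNA per cell cannot be told apart. The series title concerns memory and the transcription of Npas4, and the labels name no question about ribosomes.

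Each library held between 14965464 and 16067000 counts, and levels below are CPM, counts over the library total after TMM scaling. Taf15 itself was counted 908, 958 and 795 times in the Control mice and 3897, 3661 and 4477 times in the TAF15 OE mice, 4.27-fold higher (SE of the log2 fold change 0.086, edgeR adjusted p = 4.97e-07). Of the 16758 genes tested with the edgeR quasi-likelihood test, 15.3% were called at a Benjamini-Hochberg adjusted p below 0.05, 9.32% higher and 5.95% lower in TAF15 OE. The median log2 fold change of all tested genes was 0.026. The first principal component separated the groups, and the second held Control 1 and TAF15 OE 1 away from the remaining 4. The 12 neuronal markers examined summed to between 10305 and 15945 CPM in every library.

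The cytosolic ribosome reads every messenger RNA exported from the nucleus. Its large subunit (Rpl proteins) joins amino acids and its small subunit (Rps proteins) decodes the message. The mitochondrial ribosome is a separate machine inside mitochondria that makes only the few respiratory chain proteins encoded by mitochondrial DNA; its own proteins (Mrpl and Mrps) are all encoded in the nucleus, made in the cytosol and imported. Messages for cytosolic ribosomal proteins begin with a run of pyrimidines, the 5′ TOP element, through which mTORC1 and LARP1 set their translation and stability. Genes for mitochondrial ribosomal proteins are not known for such an element, and NRF1 and GABP, regulators of nuclear genes for mitochondria, are known to bind many of their promoters.

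The ribosomes differed in opposite directions, by small amounts. Of the 82 cytosolic genes tested, 67 had a positive and 15 a negative log2 fold change, with a median of 0.087. Of the 77 mitochondrial genes, all tested, 12 were positive and 65 negative, with a median of -0.11. Among all tested genes 53.7% were positive. Hardly any gene passed on its own: Rps20 was the single cytosolic gene called higher and none was called lower, while Mrps12 and Mrps36 were the 2 mitochondrial genes called lower and none was called higher. These shares, 1 of 82 and 2 of 77, lie under the 15.3% called among all genes. The 8 genes not tested, all of the cytosolic large subunit, were Rpl3l, Rpl39l, Rpl36al, Rpl24, Rpl10-ps3, Rpl27-ps3, Rpl9-ps1 and Rpl36-ps4, whose counts were too low.

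The subunits of each ribosome had similar medians. Large subunit genes of the cytosolic ribosome had a median log2 fold change of 0.077 over 48 tested genes (middle 50% from 0.013 to 0.13), of which 37 were positive. Small subunit genes had a median of 0.11 over 34 (0.052 to 0.16), of which 30 were positive. In the mitochondrial ribosome the large subunit stood at -0.11 over 48 genes (-0.18 to -0.045) with 42 negative, and the small subunit at -0.093 over 29 (-0.18 to -0.038) with 23 negative. Most members of all 4 classes lay inside the middle 50% of all tested genes, from -0.14 to 0.27.

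**Figure D1:**
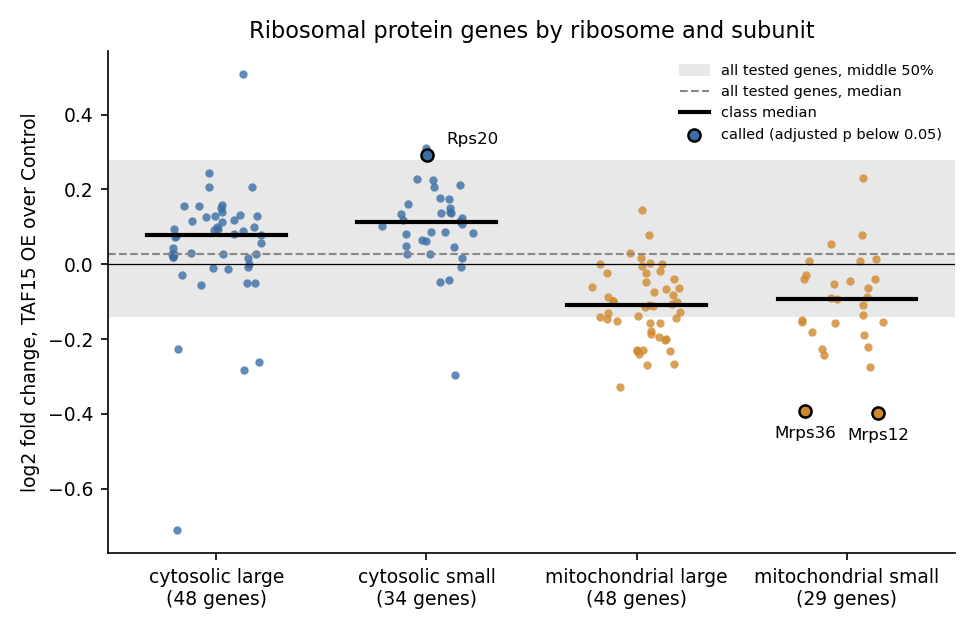
Log2 fold change (TAF15 OE over Control, vertical axis) of each tested gene, 1 point per gene, in the 4 classes along the horizontal axis. Black bars are class medians, the grey band is the middle 50% of all tested genes and the dashed line their median; ringed points are the 3 called genes. Cytosolic classes centre above 0 (0.077 and 0.11) and mitochondrial classes below it (-0.11 and -0.093).

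The counts of the 2 ribosomes can be set against each other within a library, which needs no scaling between libraries. For every 100 counts on cytosolic genes, the mitochondrial genes were counted 21.6, 20.6 and 21.9 times in the Control mice 1 to 3 and 17.8, 18.9 and 19.4 times in TAF15 OE mice 1 to 3. The mean was 21.4 ± 0.664 (SD, n = 3) in Control and 18.7 ± 0.813 in TAF15 OE, a difference of -12.5% (log2 -0.19), and every TAF15 OE library lay below every Control library. From FPKM values, which also divide by gene length, the ratio was 16.7, 16.03 and 16.8 in Control against 13.6, 14.4 and 14.8 in TAF15 OE. Leaving out any 1 library, or Control 1 and TAF15 OE 1 together, kept the log2 difference between -0.22 and -0.15. No p is given for a sum over the members.

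The same shift was present in each subunit. Mitochondrial large subunit genes had 24.5, 23.0 and 24.6 counts per 100 on cytosolic large subunit genes in Control against 20.5, 21.2 and 21.7 in TAF15 OE. For the small subunits the ratio was 17.8, 17.4 and 18.2 against 14.4, 15.7 and 16.4. Within a ribosome the balance of the subunits did not separate the groups. Cytosolic large over small subunit counts came to 1.35, 1.37 and 1.37 in Control against 1.31, 1.35 and 1.34 in TAF15 OE, and the mitochondrial ratio to 1.86, 1.80 and 1.84 against 1.87, 1.82 and 1.78. In both cases the groups overlapped.

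**Figure D2:**
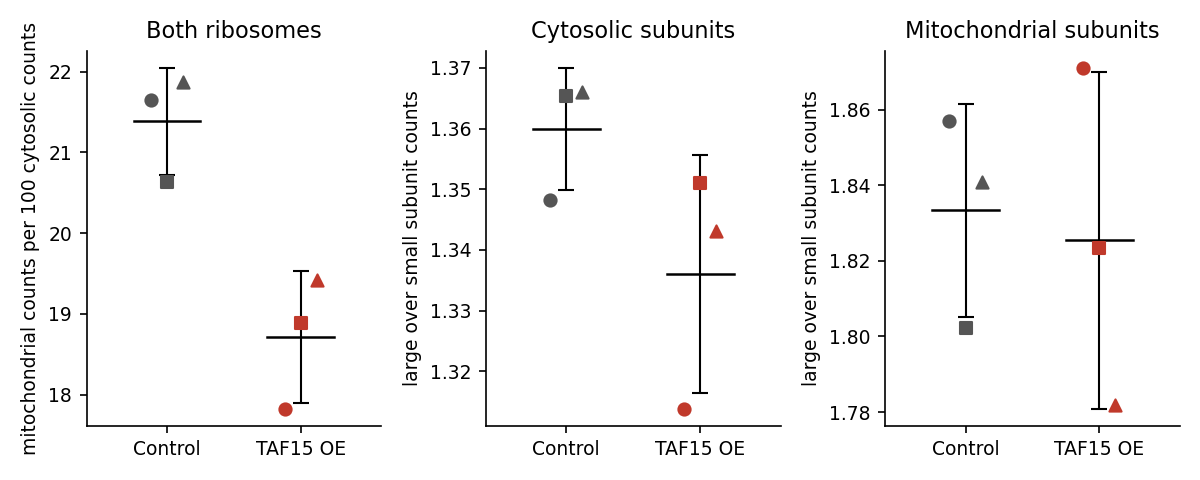
Ratios of summed counts in the 3 Control and 3 TAF15 OE mice (circle, square and triangle for replicate 1, 2 and 3; line and bar, mean and SD; the vertical axes do not start at 0). Left, mitochondrial counts per 100 cytosolic counts, where the groups do not overlap (20.6 to 21.9 against 17.8 to 19.4); middle and right, large over small subunit counts of the cytosolic and the mitochondrial ribosome, where they do.

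Taken as levels, the classes separated the groups less clearly than their ratio did. The summed mitochondrial level was 1929, 2005 and 1852 CPM in Control and 1776, 1819 and 1762 CPM in TAF15 OE, a difference of -7.42% with no overlap. Without TMM scaling, as a share of total counts, it was 0.186%, 0.200% and 0.183% against 0.178%, 0.185% and 0.181%, a difference of -4.42% in which TAF15 OE 2 lay above Control 3. Summed FPKM differed by -5.81%, with the same overlap. The cytosolic sum was 8912, 9719 and 8467 CPM in Control and 9961, 9631 and 9073 CPM in TAF15 OE, 5.78% higher on average, but Control 2 lay above 2 of the 3 TAF15 OE libraries. Relative to total counts alone, cytosolic genes took 0.858%, 0.970% and 0.835% of each Control library and 0.997%, 0.979% and 0.930% of each TAF15 OE library, 9.15% higher on average, and there too Control 2 lay above TAF15 OE 3.

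The higher average of the cytosolic class rested on few libraries. TAF15 OE 1 had the highest level of 46 of the 82 tested cytosolic genes and Control 2 of a further 20, while Control 3 had the lowest level of 53. Without TAF15 OE 1 the cytosolic median log2 fold change was 0.027, without Control 3 it was 0.046 and without Control 2 it was 0.14. Without Control 1 and TAF15 OE 1 together it was 0.013, beside 0.006 for all genes. The mitochondrial median was -0.066 without Control 2, which had the highest level of 43 of the 77 mitochondrial genes, and between -0.14 and -0.098 when any other single library was left out. Under total counts, DESeq2 size factors and upper quartile scaling both classes kept their sign (0.066 to 0.13 for the cytosolic and -0.13 to -0.061 for the mitochondrial median).

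**Figure D3:**
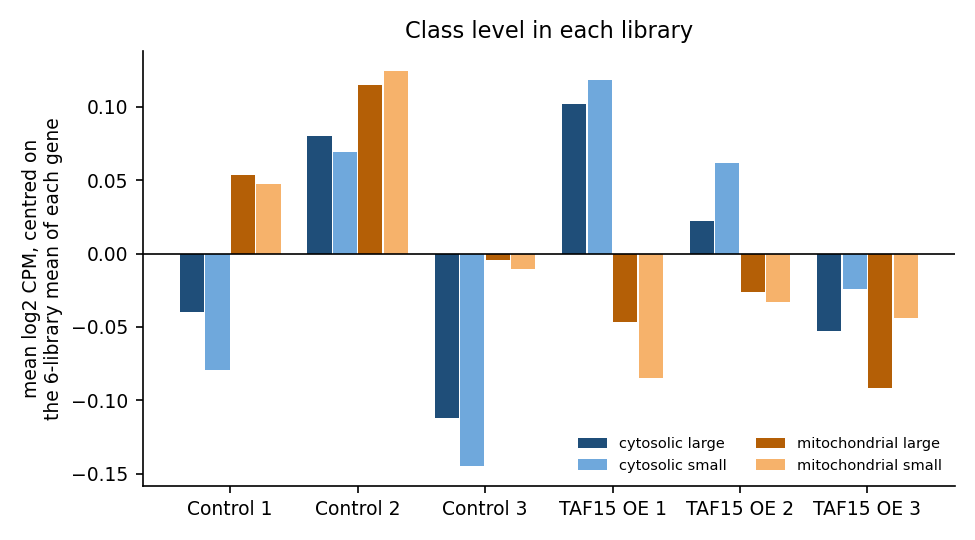
Mean log2 CPM of the tested genes of each class in each library, centred on the mean of each gene over the 6 libraries (bars; vertical axis in log2 units, horizontal axis the libraries). All bars of Control 2 lie above 0 and all bars of Control 3 and TAF15 OE 3 below it, while in Control 1, TAF15 OE 1 and TAF15 OE 2 the cytosolic and mitochondrial bars point in opposite directions.

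The sequence around the transcription start was taken from RefSeq (GRCm38.p6), which had an entry for 129 of the 167 members, 61 cytosolic and 68 mitochondrial. Each entry spans 250 bases before to 50 bases after the start. A pyrimidine run of at least 8 bases within 10 bases of the start, read on the transcribed strand, was held by 28 of 61 cytosolic genes (45.9%) and 9 of 68 mitochondrial genes (13.2%), against 17.3% of tested genes and 16.1% of all 27025 genes with an entry. The NRF1 half-motif GCGCANGC, searched on both strands of the whole entry, was held by 11 of 61 cytosolic and 22 of 68 mitochondrial genes (32.4%), against 20.6% of tested and 11.2% of all genes. By subunit it was held by 16 of 42 mitochondrial large subunit genes (38.1%) and 6 of 26 small subunit genes (23.1%). CCGGAAG, the motif of ETS factors such as GABP, was held by 39.3% of cytosolic and 36.8% of mitochondrial genes, against 17.4% of tested and 9.93% of all genes. The YY1 motif AAGATGGC was held by 9.84%, 17.6%, 4.64% and 3.19% in the same order, and the TATA box TATAAA by 9.84%, 7.35%, 9.04% and 15.7%. None of these motifs contains another, though CCGGAAG and AAGATGGC can share the letters AAG where they adjoin. A match describes letters, not binding.

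Shown are the 2 members with the smallest p and an entry in each class, as 100 bases before to 20 bases after the RefSeq start, so that the pyrimidine runs of the cytosolic genes can be set beside the mitochondrial starts. Capitals mark the longest pyrimidine run near the start in the cytosolic genes, and in the mitochondrial genes the NRF1 match of Mrpl44 and the ETS match of Mrps12. The windows are, in order, chrX:37085203-37085322 (minus strand), chr2:32961612-32961731 (plus strand), chr7:3703941-3704060 (plus strand), chrX:102189372-102189491 (minus strand), chr1:79775918-79776037 (plus strand), chr2:24975079-24975198 (minus strand), chr7:28741802-28741921 (minus strand) and chr13:100744640-100744759 (minus strand).
Rpl39: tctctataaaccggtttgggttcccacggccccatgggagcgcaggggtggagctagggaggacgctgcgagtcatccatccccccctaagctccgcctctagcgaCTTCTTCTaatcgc
Rpl12: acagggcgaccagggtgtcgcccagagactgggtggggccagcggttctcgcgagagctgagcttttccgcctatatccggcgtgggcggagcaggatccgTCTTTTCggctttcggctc
Rps9: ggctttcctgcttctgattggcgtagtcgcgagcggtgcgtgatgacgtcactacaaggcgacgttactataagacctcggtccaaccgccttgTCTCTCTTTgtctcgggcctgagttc
Rps4x: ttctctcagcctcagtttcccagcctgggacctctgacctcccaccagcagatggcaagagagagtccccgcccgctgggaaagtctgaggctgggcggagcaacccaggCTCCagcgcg
Mrpl44: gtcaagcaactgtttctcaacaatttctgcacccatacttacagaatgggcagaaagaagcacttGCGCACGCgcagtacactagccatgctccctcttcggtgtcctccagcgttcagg
Mrpl41: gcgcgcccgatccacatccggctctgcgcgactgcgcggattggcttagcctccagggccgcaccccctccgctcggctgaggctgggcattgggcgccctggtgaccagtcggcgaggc
Mrps12: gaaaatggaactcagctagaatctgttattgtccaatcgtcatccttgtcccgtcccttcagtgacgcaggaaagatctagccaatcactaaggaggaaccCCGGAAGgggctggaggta
Mrps36: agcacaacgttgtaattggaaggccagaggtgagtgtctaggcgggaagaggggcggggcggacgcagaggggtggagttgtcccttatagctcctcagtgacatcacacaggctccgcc
The runs of Rpl39, Rpl12 and Rps9 are 8, 7 and 9 bases long and that of Rps4x is 4. Mrpl44, left in lower case there, also has a pyrimidine run near its start, of 10 bases. The window of Rpl39 holds a TATAAA as well. The windows of Mrpl41 and Mrps36 hold none of the motifs searched.

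Among the small subunit genes of the cytosolic ribosome, Rps20 rose. It encodes a protein of the head of the small subunit and lies at chr4:3831334-3835665 (GRCm38, minus strand), where the annotation places a small nucleolar RNA gene, Gm24016, on the same positions. Rps20 stood at 61.7, 72.3 and 58.8 CPM in Control and at 82.9, 77.1 and 76.2 CPM in TAF15 OE, 1.22-fold higher (log2 fold change 0.29, SE 0.086, edgeR adjusted p = 0.0417). All 3 TAF15 OE mice lay above all 3 Control mice, with Control 2 the closest. The call was lost in 11 of 18 alternatives, with an adjusted p of up to 0.221, including DESeq2 and leaving out any library but Control 2.

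The other small subunit genes named by p fell short of the threshold. Rps9, a protein at the entry of the messenger RNA channel, stood at 163, 178 and 161 CPM in Control and 221, 194 and 174 CPM in TAF15 OE (log2 fold change 0.23, adjusted p = 0.113 by edgeR); Control 2 lay above TAF15 OE 3. Rps4x, the X-linked copy of the Rps4 gene, had 176, 186 and 163 CPM against 205, 201 and 187 CPM (0.18, adjusted p = 0.130 by edgeR), without overlap. Rps12 (0.21) overlapped between the groups, with an edgeR adjusted p of 0.167. Of the 34 genes, 5 had an unadjusted p below 0.05, all higher, where 29.3% of all tested genes had such a p. The groups did not overlap for 5 genes that were higher (Rps10, Rps12-ps3, Rps20, Rps25 and Rps4x) and for none that was lower, where 19.1% of all tested genes were without overlap higher and 15.5% lower.

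The most abundant small subunit messages differed little. By mean FPKM, which compares genes per length, Rps15 led with 315, followed by Rps3a1 with 251 and Rps2 with 187, in a class with a median of 54.9. Their log2 fold changes were 0.027, 0.084 and -0.043.

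In the large subunit of the cytosolic ribosome none of 48 genes was called by edgeR, and DESeq2 called none either. An unadjusted p below 0.05 was held by 1 of them. Among all tested genes 15.3% were called by edgeR and 29.3% had such a p. Rpl30, which also binds the selenocysteine insertion element of selenoprotein messages, stood at 87.9, 106.1 and 81.6 CPM against 111.8, 106.1 and 100.2 CPM (0.21, adjusted p = 0.177 by edgeR), with Control 2 level with TAF15 OE 2.

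Rpl39, Rpl12 and Rpl17 had log2 fold changes of 0.21, 0.16 and 0.16. Rpl39, a very small protein lining the exit tunnel, stood at 31.1, 37.5 and 31.7 CPM in Control and 40.2, 38.1 and 37.4 CPM in TAF15 OE, again with Control 2 inside the TAF15 OE range. Groups without overlap were few, where 19.1% of all tested genes were higher and 15.5% lower in this way. Rpl5, which carries 5S ribosomal RNA into the subunit, and Rpl7a were higher, and Rpl13a, Rpl22l1 and Rpl7a-ps5 were lower. Rpl7a-ps5 had only 15, 15 and 15 counts in Control and 12, 13 and 14 in TAF15 OE. The most abundant large subunit messages were Rpl8 with 247, Rpl4 with 216 and Rpl17 with 169 mean FPKM, where the class median was 47.1, and Rpl8 and Rpl4 each had a log2 fold change of 0.029. The highest value of the class at a mean log2 CPM of at least 1, 0.51 (adjusted p = 0.244 by edgeR), belonged to Rpl23a-ps3, with 3.40, 2.06 and 2.60 CPM against 4.22, 4.47 and 2.79 CPM.

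The counts of some members are uncertain. Rpl24, a core protein of the large subunit, had only 0.128 to 0.460 CPM in any library, and the annotation places another gene, Gm28037, on the same exon positions and strand. In all, 69 of the 167 members share exon positions with another annotated gene, 33 of them on the same strand, and strandedness of the counting is not given in the sources used here. Members named as copies (-ps) numbered 10. Beside the members, 142 pseudogene rows carry cytosolic ribosomal protein symbols, with 3.12 counts per 100 counts on the members, and 40 of them were tested with none called by edgeR. Reads of near-identical copies may be split between such rows. For mitochondrial ribosomal proteins there were 4 pseudogene rows, with 0.0766 counts per 100. Without the members that share exon positions, the cytosolic median was 0.087 and the mitochondrial -0.13.

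Among the genes named Mrps, counted here by name as the mitochondrial small subunit, Mrps12 and Mrps36 fell. Mrps12, the relative of the bacterial S12 protein that forms part of the decoding centre, lies at chr7:28739641-28741820 (GRCm38, minus strand) and shares exon positions with no other annotated gene. It stood at 31.5, 32.4 and 30.5 CPM in Control and at 26.01, 21.4 and 24.3 CPM in TAF15 OE (log2 fold change -0.40, SE 0.098, adjusted p = 0.0205 by edgeR), 1.32-fold higher in Control. The groups were well apart, with TAF15 OE 2 lowest. The call held in 13 of 18 alternatives; it was lost without Control 1, Control 2, TAF15 OE 2 or TAF15 OE 3 and with unfiltered FPKM, with an adjusted p of up to 0.088. Mrps12 is also the single member called in the authors' deposited table, with a log2 fold change of -0.43 and an adjusted p of 0.0106 there.

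Mrps36, at chr13:100735955-100744659 (GRCm38, minus strand), carries the name of a ribosomal protein, but its product is known as a component of the 2-oxoglutarate dehydrogenase complex of the citric acid cycle. It stood at 19.4, 19.4 and 17.6 CPM in Control and at 16.1, 13.0 and 13.9 CPM in TAF15 OE (log2 fold change -0.39, SE 0.12, adjusted p = 0.0476 by edgeR). All TAF15 OE mice lay below all Control mice. The call was lost in 10 of 18 alternatives, among them leaving out any library but TAF15 OE 1, with an adjusted p of up to 0.159. With Mrps36 left out and with Mrps18a and Mrps30, whose proteins sit in the large subunit, moved there, the medians were -0.11 for the large and -0.092 for the small subunit.

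Further genes named Mrps were lower in every TAF15 OE mouse without passing the threshold. Mrps18a, one of several S18-like proteins and in fact a protein of the large subunit, had 30.9, 38.5 and 33.5 CPM against 30.1, 30.8 and 27.1 CPM (-0.23, adjusted p = 0.171 by edgeR). Mrps21 had 22.7, 28.7 and 21.9 CPM against 21.3, 18.1 and 21.1 CPM (-0.27, adjusted p = 0.172 by edgeR), so the gap between the groups was narrow. With Mrps10, Mrps12, Mrps28, Mrps33 and Mrps36 this made 7 of 29 genes named Mrps without overlap and lower, and none higher. Mrps18a and Mrps36 are among these 7 by name only. Of all tested genes 15.5% were lower without overlap. Mrps6 went the other way, with 9.78, 12.9 and 10.4 CPM against 10.1, 15.3 and 13.5 CPM (0.23, adjusted p = 0.418 by edgeR). By length, Mrps21 (30.1 FPKM), Mrps12 (26.5) and Mrps33 (20.2) were the most abundant, in a class with a median of 8.60.

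None of the 48 mitochondrial large subunit genes was called by edgeR or DESeq2, and 7 had an unadjusted p below 0.05, all lower, against 29.3% of all tested genes with such a p. In this class 12 genes were lower in every TAF15 OE mouse than in any Control mouse, namely Mrpl3, Mrpl4, Mrpl10, Mrpl15, Mrpl18, Mrpl30, Mrpl37, Mrpl41, Mrpl42, Mrpl44, Mrpl45 and Mrpl55, and none was higher; of all tested genes 15.5% were lower in this way. Mrpl44, whose loss in people causes a heart muscle disease and which has the fold of an RNA-cutting enzyme, stood at 19.7, 18.3 and 17.1 CPM in Control and 15.9, 13.5 and 14.4 CPM in TAF15 OE (-0.33, SE 0.12, adjusted p = 0.0819 by edgeR). Mrpl44 was called in 1 alternative, without TAF15 OE 1 (adjusted p = 0.0442 by edgeR). Its exons share positions with Wdfy1 on the other strand.

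Mrpl41, the most abundant message of the class by length (43.2 FPKM, class median 10.1), stood at 44.3, 41.1 and 39.4 CPM in Control and 34.8, 35.7 and 35.8 CPM in TAF15 OE (-0.23, SE 0.083, adjusted p = 0.0863 by edgeR). The TAF15 OE mice lay close together and below all Control mice. Mrpl10 (23.9 FPKM), a protein at the base of the stalk that recruits translation factors, had 41.8, 44.2 and 43.4 CPM against 38.5, 38.7 and 38.9 CPM (-0.16, adjusted p = 0.206 by edgeR). Mrpl55, Mrpl15 and Mrpl4 had log2 fold changes of -0.24, -0.27 and -0.19, with adjusted p from 0.133 to 0.144 by edgeR. Mrpl17 had the highest value, 0.15 (adjusted p = 0.407 by edgeR), and Mrpl43, with 23.4 FPKM, stayed at -0.023.

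**Figure D4:**
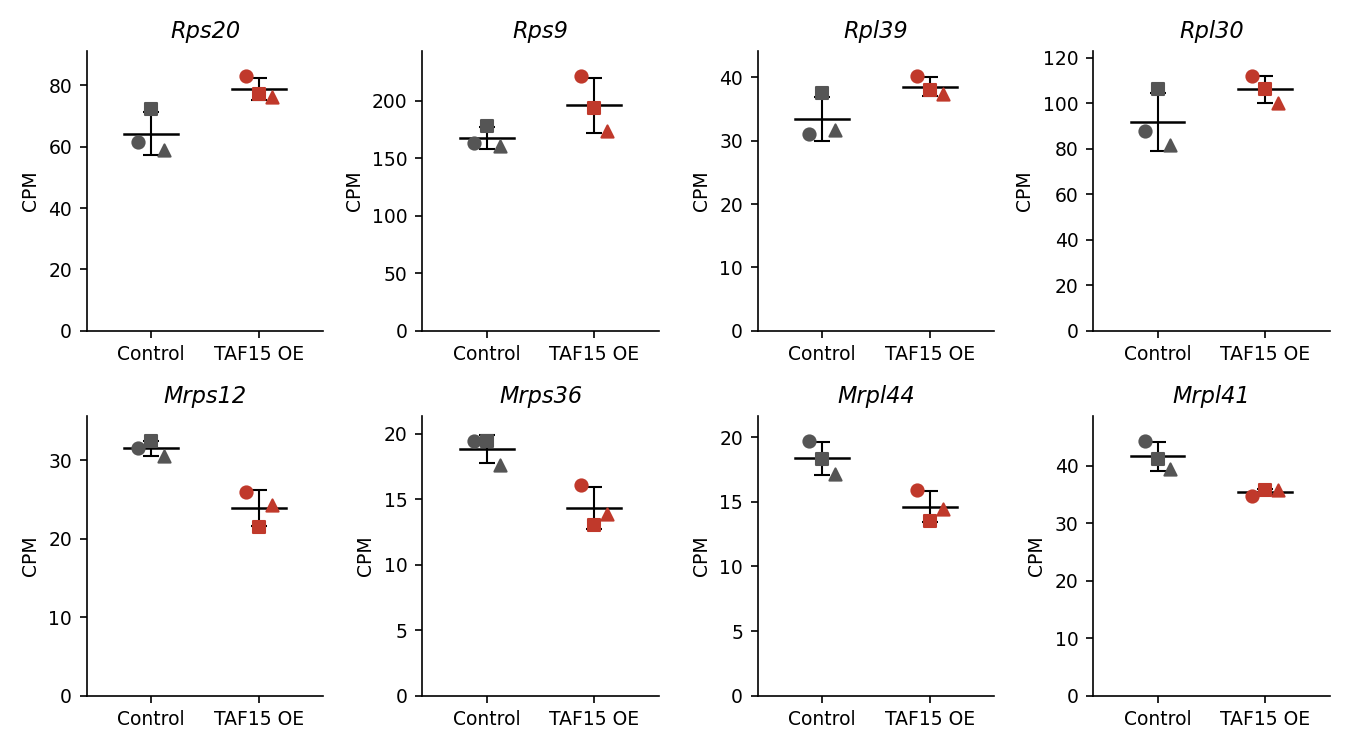
Level in CPM (vertical axes, from 0) of 4 cytosolic genes (top) and 4 mitochondrial genes (bottom) in the 3 Control and 3 TAF15 OE mice; circle, square and triangle are replicate 1, 2 and 3, and line and bar are mean and SD. In Rps20 and in all 4 mitochondrial genes the groups do not overlap, while in Rps9, Rpl39 and Rpl30 Control 2 reaches into the TAF15 OE range.

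Over both subunits, 7 cytosolic genes were higher and 3 lower without overlap, and 19 mitochondrial genes were lower and none higher. Among all tested genes the shares were 19.1% higher and 15.5% lower, so the cytosolic 7 of 82 is a smaller share than in the background and the mitochondrial 19 of 77 a larger one. At an unadjusted p below 0.05 stood 6 cytosolic genes, all higher, and 9 mitochondrial genes, all lower, where 29.3% of all tested genes had such a p. In the table the authors deposited, 160 of the 167 members have an adjusted p, with none called higher and 1 lower; Mrps36 stood at 0.0505 and Rps20 at 0.0746 there.

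Several ribosomal proteins have a second gene. Rpl22l1, a copy of Rpl22, had 12.6, 13.9 and 12.9 counts per 100 Rpl22 counts in Control against 9.44, 10.6 and 10.8 in TAF15 OE. The groups did not overlap (log2 difference -0.35), with an exact permutation p = 0.1, two-sided, which is the smallest 3 against 3 mice can give, and 0.5 after adjustment over the 5 pairs tested. Rpl22l1 itself had a log2 fold change of -0.26 and Rpl22 one of 0.095. Rps27l per 100 Rps27 counts was 22.7, 25.9 and 20.2 against 21.9, 23.7 and 29.5, with overlap (exact permutation p = 0.6). For Rpl7l1 over Rpl7, Rps27rt over Rps27 and Rpl3l over Rpl3 the exact permutation p was 0.2, 0.9 and 0.7. The muscle gene Rpl3l had 1 to 5 counts per library, Rpl39l 0 to 6 and Rpl36al 0 to 8, too few to compare.

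Ribosomal proteins whose symbols follow other patterns mostly had the sign of their ribosome. Of 7 further cytosolic ones 6 were positive, with a median of 0.11 and none called by edgeR. Fau, which encodes the protein of the small subunit fused to a ubiquitin-like domain, had 125, 139 and 123 CPM against 171, 149 and 141 CPM (0.26, adjusted p = 0.0668 by edgeR), without overlap. Rplp0, the base of the stalk, had a log2 fold change of 0.21. Of 5 further mitochondrial ones 4 were negative and Ptcd3 lay at 0, with a median of -0.088 and none called by edgeR. Dap3, a GTP-binding protein of the small subunit, had 68.3, 75.6 and 72.2 CPM against 62.4, 63.0 and 61.4 CPM (-0.21, adjusted p = 0.0663 by edgeR). Beside these 0 calls, each list had 2 genes with an unadjusted p below 0.05, where 29.3% of all tested genes had such a p.

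Genes that build, serve or regulate the cytosolic ribosome had medians near or below 0. Of 30 cytosolic translation factors 1 was called higher and 1 lower, with a median of -0.024. These shares lie under the 9.32% and 5.95% of all tested genes called higher and lower. Tpt1, whose message also has a 5′ TOP element, rose from 279, 297 and 259 to 384, 354 and 327 CPM (0.35, SE 0.079, adjusted p = 0.0134 by edgeR), a call lost without Control 3, without TAF15 OE 2 and in 2 further alternatives. Eef1a2, the neuronal elongation factor that delivers aminoacyl-tRNA, fell from 934, 971 and 886 to 772, 727 and 704 CPM (-0.34, SE 0.071, adjusted p = 0.00948 by edgeR), a call lost without TAF15 OE 2 and in unfiltered FPKM. Of 36 ribosome biogenesis genes 2 were called lower and none higher, a share near the 5.95% of all tested genes called lower, with a median of -0.087. They were Bop1 (-0.39, adjusted p = 0.0063 by edgeR) and Rrp1 (-0.22, adjusted p = 0.0429 by edgeR), both of the large subunit's assembly. The call of Bop1 held in all 18 alternatives and that of Rrp1 in 8, with an adjusted p of up to 0.189; Rrp1 was lost on leaving out any library but TAF15 OE 1.

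Among 20 genes of mTORC1 and translation control 1 was called higher and 2 lower, with a median of -0.016. Together this share is near the 15.3% of all tested genes called. Rps6ka1, a kinase that phosphorylates ribosomal protein S6, rose from 17.9, 18.4 and 17.2 to 38.3, 27.5 and 28.6 CPM (0.82, adjusted p = 0.00278 by edgeR). Atf4, the transcription factor of the integrated stress response, fell from 108.0, 111.9 and 105.8 to 81.0, 84.3 and 90.8 CPM (-0.35, adjusted p = 0.00808 by edgeR). Akt1s1, an inhibitory subunit of mTORC1, was called lower too (-0.27, adjusted p = 0.0449 by edgeR), but lost its call in 9 of 18 alternatives, among them without Control 1, Control 2, TAF15 OE 2 or TAF15 OE 3 (adjusted p up to 0.202). The groups did not overlap for these 3 genes, with TAF15 OE 1 highest for Rps6ka1 and lowest for Atf4.

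On the mitochondrial side, none of 30 tested genes of mitochondrial translation and ribosome assembly was called by edgeR. Their median was -0.046, and 3 had an unadjusted p below 0.05, where 29.3% of all tested genes had such a p. Of 14 regulators of mitochondrial gene expression 1 was called, and both shares lie under the 15.3% called among all tested genes. The called regulator was Esrra, a nuclear receptor that activates genes for mitochondria. It fell from 50.9, 50.9 and 53.8 to 42.7, 39.2 and 35.7 CPM (-0.40, adjusted p = 0.0113 by edgeR). The 14 regulators had a median of 0.033, with 8 positive and 6 negative. Gabpa and Nrf1 had 0.27 and 0.17, and Tfam and Polg -0.20 and -0.12, none of them called by edgeR. The genes that the mitochondrial ribosome itself translates or that lie beside them on mitochondrial DNA mostly had values of the other sign from its proteins. Of 15 measured, 14 were positive, with a median of 0.22, and 2 were called higher, where 9.32% of all tested genes were called higher. These were mt-Nd5 (0.31, adjusted p = 0.0423 by edgeR) and mt-Nd6 (0.28, adjusted p = 0.0389 by edgeR), both subunits of respiratory complex I. Both calls were lost in 6 of 18 alternatives, among them without Control 2, Control 3, TAF15 OE 2 or TAF15 OE 3, with an adjusted p of up to 0.210 and 0.217. Levels of mt-Nd6 were 832, 784 and 740 CPM in Control and 873, 1030 and 952 CPM in TAF15 OE. Levels of the 15 genes were very uneven: in Control 1 mt-Co1 had 16764 CPM, mt-Co2 105 and mt-Nd3 4.14. With 5 counts in Control 1 and an SE of 0.49, mt-Atp8 was barely measured. Such low genes are part of the 14 positive and of the median.

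Markers of several cell types differed between the same groups, where 9.32% of all tested genes were called higher and 5.95% lower. Of 12 neuronal markers 11 were called lower (median -0.40), and their summed level was 13830 to 15945 CPM in Control and 10305 to 11833 CPM in TAF15 OE. Of 12 microglial markers 10 were called higher (median 1.21), with sums of 679 to 719 against 1370 to 2303 CPM, highest in TAF15 OE 1. Of the Control mice, Control 2 had the highest mitochondrial ribosomal protein sum and the lowest neuronal sum. Single neuronal markers ranked these mice differently. Camk2a, the most abundant, had 5761, 4479 and 5029 CPM in Control 1 to 3, and Syp had 706, 709 and 676 CPM. The cytosolic sum of Control 2 lay above those of TAF15 OE 2 and 3, and its microglial sum was 706 CPM. Called higher were also 8 of 10 astrocyte, 6 of 10 oligodendrocyte and 6 of 11 endothelial and mural markers, with medians of 0.53, 0.44 and 0.50. Of the 11 lymphocyte and plasma cell markers tested 9 were called higher (median 2.02), with sums of 31.8 to 82.0 against 212 to 313 CPM and Ms4a1 at 0 in at least 1 library. Choroid plexus markers, none of 8 called by edgeR (0 also at an unadjusted p below 0.05), ranged from 339 to 6683 CPM in Control, with Control 1 lowest, and from 2578 to 7723 CPM in TAF15 OE. What part these cell types have in the shift between the ribosomes was not tested, and a ranking of 3 Control mice cannot show it.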

How the data were processed

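RNA-seq of 6 hippocampal libraries was analysed. The submitters' processing notes list TopHat2, HISAT2 2.1.0, Bowtie2 2.2.3 and CASAVA, and build GRCm38. Roles of these tools, the counter, annotation release and strandedness are not given in the sources used here. Deposited by the authors were raw counts per gene, FPKM values and a comparison table with the authors' log2 fold changes, fold ratios, p-values and adjusted p-values, and a mean normalized signal over libraries; the test is not named. Its counts equalled the count table in 100% of cells.

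Counts were fitted with edgeR 4.0.16 in R 4.3.3 (filterByExpr with minimum count 10 and total 15, TMM, quasi-likelihood test, robust, group as the only term), with Benjamini-Hochberg adjustment over all 16758 tested genes. Standard errors come from the test statistic of each gene, and the biological coefficient of variation was 13.1%. The fit was tested on simulated data with changes larger than those of the members, so that test cannot tell whether member changes are detectable. P-values measure the spread between mice, 1 library each. Symbols and positions came from the authors' table, and overlaps from GENCODE M21, which held all 167 members, 146 at the same position. All value columns were mapped to libraries, and the labels give no batch.

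Named members were, per class, the 5 with the smallest p, the 3 with the highest mean FPKM, the highest and lowest log2 fold change among genes whose mean log2 CPM reached 1, and the like-copies with their parent genes. Of each pathway list up to 4 genes with the smallest p were named. A few genes this rule names are not reported here. Rpl24, Nrf1 and the lists of genes without overlap were added after their values were seen. The members and the 15 gene lists were chosen with earlier results of these data known. Alternatives were DESeq2 1.42.0 and its size factors, total counts, upper quartile, no filter, a floor of 1 CPM on the mean, limma-voom and limma-trend (limma 3.58.1) on log2(FPKM + pseudocount 1 or 0.1), the replicate block, and libraries left out. Membership alternatives were chosen after seeing the data.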

Additional observations from a re-analysis of the deposited data

How the results depend on the processing

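The mitochondrial counts per 100 cytosolic counts stayed lower in TAF15 OE under all 8 alternatives run, with a log2 difference from -0.22 to -0.15 (from -0.22 to -0.16 with 1 library left out). The class medians kept their sign in all 20 alternatives, though the cytosolic large subunit median fell as low as 0.0045 and the small to 0.030. Over the alternative fits the median of all tested genes ranged from -0.0038 to 0.074. For the mitochondrial genes the medians were smaller in FPKM, at -0.057 with a pseudocount of 0.1 and -0.052 with 1, filtered or not (large subunit -0.058 and -0.053). The mitochondrial small subunit median was -0.15 without members that share exon positions. The summed mitochondrial level under total counts differed by -0.063 (large subunit -0.066). With 1 library left out the cytosolic sum ranged from 0.037 to 0.14 and the mitochondrial one from -0.14 to -0.082. The ratio of mitochondrial large to small subunit changed sign in FPKM, to 0.018, and ranged from -0.024 to 0.011 with 1 library left out. The cause of these shifts was not tested.

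Calls of single members were less stable. The cytosolic count was 0 under DESeq2 size factors, DESeq2, the 3 FPKM fits and without Control 1 and TAF15 OE 1, in the small subunit as in total, and 2 under total counts, where 1 was of the large subunit. The mitochondrial count, all of the small subunit, was 1 under DESeq2, total counts and FPKM with either pseudocount, and 0 in FPKM without a filter. With 1 library left out the cytosolic count ranged from 0 to 2 (large subunit 0 to 1, small 0 to 1) and the mitochondrial from 0 to 3 (large 0 to 1, small 0 to 2). Of all genes 2559 were called, 1551 in FPKM with a pseudocount of 1, 669 without its filter, 1630 with a pseudocount of 0.1, and 1331 to 2501 with 1 library left out. Of the pathway genes 10 were called, 2 in unfiltered FPKM and 4 to 10 with 1 library left out.

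Replicate numbers are shared by the groups, but nothing in the labels ties same-numbered mice. The correlations of their deviations were 0.126, 0.0776 and 0.0871, and each library correlated best with its own number. With the replicate block 4 members were called, 2 cytosolic (1 of the large subunit) and 2 mitochondrial, with 16 pathway genes and 3291 of all genes.

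The sign changed in 13 named genes, none of them called in any alternative; all had values near 0 except Gadd45gip1 (-0.070) and Rps27rt (0.17). In FPKM with a pseudocount of 0.1, of 1, and under total counts, Mrpl43 had 0.022, 0.021 and 0.023, Ptcd3 0.045, 0.039 and 0.047, Rpl7l1 0.019, 0.018 and 0.020, and Rps2 0.0039, 0.0039 and 0.0043; Ptcd3 had 0.0044 with the mean CPM floor. Under DESeq2 and with no filter Rpl3 had -0.011 and -0.011 (size factors -0.0033), Rpl36a -0.0024 and -0.0017, Rpl8 -0.0014 and -0.00035, Rplp1 -0.0081 and -0.0071, and Rps15 -0.0027 and -0.0017; Rpl4 had -0.00079 under DESeq2. Without Control 1 and TAF15 OE 1, Rpl36a had -0.098, Rpl4 -0.0080, Rpl7l1 0.00043, Rpl8 -0.019, Rplp1 -0.046, Rps15 -0.034 and Rps27rt -0.027. With 1 library left out the ranges were -0.22 to 0.026 for Gadd45gip1, -0.11 to 0.021 for Mrpl43, -0.057 to 0.022 for Ptcd3, -0.023 to 0.070 for Rpl3, -0.048 to 0.15 for Rpl36a, -0.0070 to 0.064 for Rpl4, -0.078 to 0.025 for Rpl7l1, -0.023 to 0.067 for Rpl8, -0.054 to 0.077 for Rplp1, -0.035 to 0.090 for Rps15 and -0.018 to 0.11 for Rpsa. With 3 mice per group, a member change of the size of the class medians was not detectable gene by gene, since the median standard error was 0.082 for cytosolic and 0.11 for mitochondrial genes.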
